A study of Mus musculus with 3 samples.

Results

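The 5 genes described here, Igtp, Irgm2, Gbp9, Parp14 and Ifih1, are interferon-inducible genes that were chosen by name, with their values in these data already known, from the 11886 genes of the authors' deposited table. Each had 1 RefSeq transcript there, so 5 of 17910 transcripts are concerned. Igtp (Irgm3) and Irgm2 belong to the immunity-related GTPases, Gbp9 to the guanylate-binding proteins, and Ifih1 encodes MDA5, a cytosolic sensor of long double-stranded RNA. Parp14, an ADP-ribosyltransferase, is neither a GTPase nor an established nucleic acid sensor, although it is interferon-inducible like the others.

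The study measured RNA in mT3-2D-GFP, a GFP-labelled KPC line of C57BL/6 origin, where KPC denotes a genetically engineered mouse model of pancreatic cancer. The 3 groups were the line in culture (DMEM with serum), GFP-positive cells sorted from tumours of this line in C57BL/6 (WT) mice, and GFP-positive cells sorted from its tumours in B6.CB17-Prkdcscid/SzJ (SCID) mice. SCID mice lack mature T and B cells and keep innate immune cells such as macrophages and natural killer cells. RNA of 6 WT tumours and of 5 SCID tumours was mixed in equal amounts within each group, so each group was 1 library of 1 parental line, and no spread between tumours or cultures was measured. The labels used here do not state the hosts' age or sex.

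Interferon-gamma, made mainly by activated T cells and natural killer cells, acts through the Ifngr1 and Ifngr2 receptor chains and the kinases Jak1 and Jak2 on genes with gamma-activated sites (GAS). Type I interferons act through Ifnar1 and Ifnar2 and a complex that holds Stat2 and Irf9, which binds interferon-stimulated response elements (ISRE). The immunity-related GTPases and guanylate-binding proteins are classically induced by interferon-gamma and attack membranes around intracellular pathogens, with Igtp and Irgm2 acting as regulators that guard the cell's own membranes. Ifih1 signals through Mavs to the kinases Tbk1 and Ikbke and is itself raised by interferon.

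The Igtp and Irgm2 promoters are shown because these neighbouring genes share an arrangement of both element types, and Irgm1 because it is the remaining member of the same regulatory subgroup. Each line gives the 250 bases before the transcription start, 5′ to 3′ on the gene's own strand, from RefSeq on GRCm38.p6. Capitals mark matches to GAAANNGAAA, an ISRE-type core (TTTCNNTTTC on the other strand), and to TTCNNNGAA, a GAS-type core that is its own reverse complement. The windows are chr11:58199306-58199555 on the forward strand for Igtp, chr11:58214727-58214976 on the forward strand for Irgm2 and chr11:48871421-48871670 on the reverse strand for Irgm1.
Igtp: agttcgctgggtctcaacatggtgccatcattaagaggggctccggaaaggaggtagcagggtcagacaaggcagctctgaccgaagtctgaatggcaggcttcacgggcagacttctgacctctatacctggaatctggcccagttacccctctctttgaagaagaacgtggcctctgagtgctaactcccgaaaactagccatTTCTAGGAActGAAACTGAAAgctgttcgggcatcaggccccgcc
Irgm2: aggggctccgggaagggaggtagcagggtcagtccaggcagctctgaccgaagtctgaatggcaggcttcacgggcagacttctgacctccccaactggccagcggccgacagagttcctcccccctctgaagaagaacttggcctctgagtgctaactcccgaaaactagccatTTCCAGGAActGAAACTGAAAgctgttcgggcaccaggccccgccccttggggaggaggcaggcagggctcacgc
Irgm1: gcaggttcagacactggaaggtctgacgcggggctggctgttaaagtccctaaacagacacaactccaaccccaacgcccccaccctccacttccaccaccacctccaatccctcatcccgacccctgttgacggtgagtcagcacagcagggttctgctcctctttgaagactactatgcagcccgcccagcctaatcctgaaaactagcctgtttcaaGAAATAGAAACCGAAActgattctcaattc

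In Igtp the GAS-type match TTCTAGGAA began 45 bases before the start and the ISRE-type match GAAACTGAAA began 34 bases before it. In Irgm2 the corresponding matches, TTCCAGGAA and GAAACTGAAA, began 75 and 64 bases before the start. Both genes had 2 bases between the elements, 20 of the 21 bases from the first to the end of the second were identical, and the longest run shared by the windows was 55 bases. Irgm1 held 2 overlapping ISRE-type matches, GAAATAGAAA and GAAACCGAAA, and no GAS-type match in its window. Among all 32851 RefSeq promoter windows of the same length, 2.98% held GAAANNGAAA, 7.02% held TTCNNNGAA, 0.332% held both, and 0.0700% (23 windows) held both with at most 20 bases between them. The Ifih1 window held neither match, and windows were found for 3 of the 5 genes. A match of letters is a description and does not show binding.

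All gene values below are log2 fold changes from the authors' deposited table. They are differences between libraries, not levels, and a gene with several transcripts is given as their mean. The comparisons are named WT minus SCID, SCID minus line and WT minus line. They rest on the same 3 libraries, so the third is the sum of the others and they are not separate evidence. The threshold for counting a gene as higher or lower is 2-fold, a log2 value of 1 or -1. Each group being a single library, nothing here could be tested between conditions or checked in a replicate. Because the 5 genes were chosen with these values known, their own values are descriptions.

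All 5 genes were higher in both sorted pools than in the cultured line, and higher in the WT pool than in the SCID pool. In WT minus line, 5 of 5 were higher by 2-fold or more, at 1.16 to 2.36, against 4.12% of all genes. In SCID minus line 2 of 5 were, at 0.60 to 1.33 for all 5, against 3.65% of all genes. In WT minus SCID 3 of 5 were, at 0.56 to 1.24, against 0.303% of all genes. Since the genes were picked on these contrasts, nothing is read from those counts. The shares of all genes above 0 were 48.6% in WT minus line, 48.3% in SCID minus line and 51.5% in WT minus SCID, and the shares lower by 2-fold or more were 2.03%, 2.62% and 0.0168%. In sorted bulk RNA, a larger share of cells of some type and more RNA per cell cannot be told apart.

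**Figure D1:**
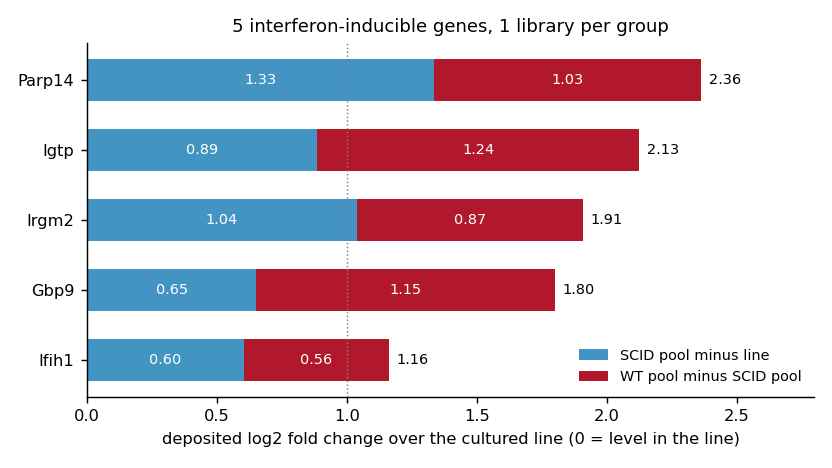
Deposited log2 fold change over the cultured line for the 5 genes, as horizontal bars that start at 0, with the SCID pool's difference from the line in blue and the further step from the SCID to the WT pool in red; each bar ends at WT minus line and the dotted line marks 2-fold. Parp14 reached 2.36 and Ifih1 1.16, and Igtp had the largest red step of the 5, at 1.24. There is 1 library per group, so no error bars can be drawn.

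Igtp had the largest WT minus SCID value of the 5. It was at 0.89 in SCID minus line (1.85-fold), 1.24 in WT minus SCID (2.36-fold) and 2.13 in WT minus line (4.36-fold). The SCID pool thus stood between the line and the WT pool, with 41.7% of the log2 distance from line to WT already present there. Igtp ranked 22 of 11886 in WT minus SCID, 573 in SCID minus line and 16 in WT minus line. Its transcript NM_018738 lies on chromosome 11 from 58199556 to 58207592 on the forward strand, in 3 exons.

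Irgm2, whose start lies 15.4 kb from that of Igtp, differed from it mainly in the step between the tumour pools. Its values were 1.04 in SCID minus line (2.05-fold), 0.87 in WT minus SCID (1.83-fold) and 1.91 in WT minus line (3.76-fold). It passed 2-fold in the SCID pool against culture and not between the pools, the reverse of Igtp, yet the genes lay 0.26 apart on the plane of SCID minus line and WT minus line, the closest pair of the 5. NM_019440 lies on chromosome 11 from 58214977 to 58222783 on the forward strand, in 2 exons. In GENCODE vM21 a longer Irgm2 model starts inside Igtp and shares 8.01% of the Igtp exon bases. Of all windows as long as a 75-base read, 8.37% of those in Igtp and 3.78% of those in Irgm2 also occur in transcripts of other genes, chiefly each other, so a small part of their reads could be assigned to either gene.

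Of 15 listed immunity-related GTPases 6 were measured, Igtp and Irgm2 among them. The other 4 ran from 0.03 to 0.89 in WT minus SCID, with a median of 0.65 against 0.00 for all genes. In WT minus line they ran from 0.46 to 0.76, also with a median of 0.65. In SCID minus line they lay on both sides of 0, from -0.16 to 0.54, with a median of -0.03. Irgm1, a regulator of autophagy and membrane protection, was at -0.16 in SCID minus line, 0.62 in WT minus SCID and 0.46 in WT minus line. 9930111J21Rik1 and 9930111J21Rik2, adjacent loci of the same GTPase family, were at 0.89 and 0.67 in WT minus SCID and at -0.13 and 0.07 in SCID minus line. Irgq, a distant relative, was at 0.03 in WT minus SCID and 0.54 in SCID minus line. Thus Igtp and Irgm2 were the 2 highest of the 6 in SCID minus line, while in WT minus SCID Irgm2 lay just below 9930111J21Rik1. The 9930111J21Rik pair may share reads with each other.

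Gbp9 was the 1 guanylate-binding protein gene of 12 listed that had a value, so the family cannot be described further here. It stood at 0.65 in SCID minus line (1.57-fold), 1.15 in WT minus SCID (2.22-fold) and 1.80 in WT minus line (3.48-fold). Of the 5 genes it had the smallest part of its distance from the line present in the SCID pool, 36.2%. It ranked 25 in WT minus SCID and 1080 in SCID minus line. NM_172777 lies on chromosome 5 from 105078394 to 105110292 on the reverse strand, in 11 exons, in a cluster of related genes. The Gbp8 gene model overlaps this span on the same strand without sharing exon bases, and 4.32% of the 75-base windows of Gbp9 occur in other genes, Gbp8, Gbp4 and Gbp6 among them. Reads of those copies, which had no values of their own, could have been counted as Gbp9.

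Parp14, which modifies proteins with ADP-ribose and carries macrodomains, had the highest values of the 5 against culture. It was at 1.33 in SCID minus line (2.52-fold), 1.03 in WT minus SCID (2.04-fold) and 2.36 in WT minus line (5.15-fold), where it ranked 6 of 11886. The SCID pool held 56.4% of the distance from line to WT, the largest share of the 5. It was the only 1 of the 5 past 2-fold in all 3 comparisons, and in WT minus SCID only by a margin of 0.03. NM_001039530 lies on chromosome 16 from 35832878 to 35871382 on the reverse strand, in 17 exons, and 0.504% of its 75-base windows occur in another gene.

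Within the PARP family, Parp14 was followed by Dtx3l, Parp12, Parp10 and Parp9 in WT minus SCID. All 17 listed genes, including the Parp9 partner Dtx3l, were measured, 9 were above 0, the median was 0.04, and Parp14 alone was past 2-fold. Dtx3l, a ubiquitin ligase, was at 0.51, Parp12 at 0.46, Parp10 at 0.41 and Parp9, which pairs with Dtx3l, at 0.34. Parp1, the main DNA-repair enzyme of the family, was at 0.17. In SCID minus line 3 of 17 were past 2-fold, Parp8 at 1.72, Parp14 at 1.33 and Parp12 at 1.13, and in WT minus line 4 were, as Parp10 stood at 1.07. Parp8 showed the largest SCID minus line value of the family but was at -0.10 in WT minus SCID, so its difference from culture was of about the same size in both pools, whereas that of Parp14 was larger in the WT pool. The family median was 0.41 in SCID minus line and 0.72 in WT minus line. Without Parp14, which was chosen with its values known, the medians were 0.39 and 0.56, and 0.02 in WT minus SCID.

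Ifih1 had the smallest values of the 5. It was at 0.60 in SCID minus line (1.52-fold), 0.56 in WT minus SCID (1.47-fold) and 1.16 in WT minus line (2.24-fold), so 51.9% of the distance was present in the SCID pool. It ranked 143 in WT minus SCID and passed 2-fold against culture in the WT pool alone. NM_027835 lies on chromosome 2 from 62595793 to 62646255 on the reverse strand, in 16 exons, and none of its 75-base windows occurs in another gene.

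Among nucleic acid sensors and their adaptors, Ifih1 stood near the top of its group between the pools. Of 28 listed genes 20 were measured, 17 were above 0 in WT minus SCID with a median of 0.13, and 0 were past 2-fold. Without Ifih1 the median was 0.12. Tmem173, encoding the DNA-sensing adaptor STING, was at 0.58, next to Ifih1. Oasl1 was at 0.41. Ddx58, encoding the related sensor RIG-I, was at 0.18 in WT minus SCID although at 0.65 in SCID minus line, close to Ifih1 there. The signalling chain below Ifih1 was nearer to 0, with Mavs at 0.08, Ikbke at 0.18 and Tbk1 at -0.01. Tlr3, the endosomal double-stranded RNA receptor, was at 0.14, and Mb21d1, encoding the DNA sensor cGAS, at 0.18. In WT minus line 2 of the 20 were past 2-fold, Tmem173 at 1.90 and Ifih1.

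**Figure D2:**
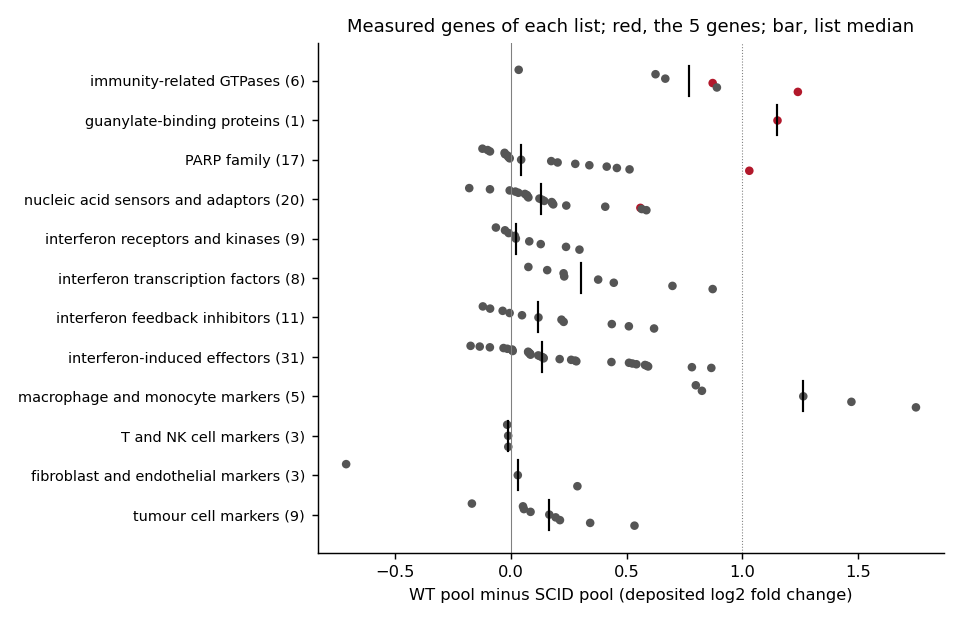
WT minus SCID (deposited log2 fold change, horizontal axis) for each measured gene of the lists named on the vertical axis, with the number of genes in brackets; red points are the 5 genes, grey points the others, the vertical bar is the list median, and dotted and solid vertical lines mark 2-fold and 0. The 3 interferon pathway genes past 2-fold were Igtp, Gbp9 and Parp14, and the macrophage list had the highest median of the lists with 2 or more genes, 1.26.

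Receptor and kinase genes of the interferon pathway differed little between the tumour pools, and several of its factors differed more. No interferon ligand gene of 8 listed had a value. All 9 listed receptor and kinase genes were measured, none was past 2-fold in any comparison, and the WT minus SCID median was 0.02. Ifngr1 was at 0.02, Ifngr2 at 0.13, Ifnar1 at 0.08, Ifnar2 at 0.30, Jak1 at 0.02 and Jak2 at -0.03. Of 13 listed transcription factors 8 were measured and all 8 were above 0 in WT minus SCID, with a median of 0.30. Irf1, an interferon-gamma-induced factor, was at 0.70, while Stat2 was at 0.38, Irf9 at 0.16 and Irf3 at 0.23. In WT minus line Irf1 was at 1.00, just under 2-fold, and in SCID minus line it was at 0.30, below all 5 genes.

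The feedback and effector genes covered a wide range around the 5. Of 12 listed inhibitors 11 were measured, with a WT minus SCID median of 0.12 and none past 2-fold. Socs1, the main inhibitor of interferon-gamma signalling, was at 0.23 and Socs3, better known from interleukin-6 signalling, at 0.51. Of 55 listed interferon-induced effectors 31 were measured, 26 were above 0 in WT minus SCID with a median of 0.13, and none was past 2-fold. The gene of the checkpoint ligand PD-L1, Cd274, was at 0.87, Tapbp and B2m, of MHC class I assembly, at 0.59 and 0.58, and Ube2l6, an ISG15-conjugating enzyme, at 0.52. Ifit3, a classical type I interferon effector, was at 0.98 in SCID minus line but at 0.13 in WT minus SCID. Trim21, an antibody receptor and ubiquitin ligase, was at 1.08 and -0.17 in the same comparisons. Ifit2 was at -0.03 in WT minus SCID and -0.01 in SCID minus line, and Bst2 (tetherin) at 0.43 and -0.41. The Ifit2 values are means of 2 transcripts with opposite signs. In the same comparisons 1 was at -0.30 and 0.57 and the other at 0.24 and -0.59.

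Over the 9 interferon pathway lists together, 103 of 169 genes were measured. Without the 5 genes, 75 of 98 were above 0 in WT minus SCID, with a median of 0.13 and 0 past 2-fold. In SCID minus line 63 of those 98 were above 0, with a median of 0.19 and 4 past 2-fold. In WT minus line 75 of the 98 were above 0, with a median of 0.30 and 11 past 2-fold. The shares of all genes above 0 were 51.5%, 48.3% and 48.6% in these 3 comparisons in turn. Those higher by 2-fold were 0.303%, 3.65% and 4.12%. Igtp, Gbp9 and Parp14 were therefore the only 3 of the 103 measured pathway genes past 2-fold in WT minus SCID, a statement about values that also served to choose them.

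Macrophage and monocyte markers stood at values like those of the 5 genes. Of 24 listed markers 5 were measured and all 5 were above 0 in WT minus SCID, from 0.80 to 1.75, with Cx3cr1, a fractalkine receptor, at 1.47, the lysosomal Cd68 at 1.26 and the mannose receptor Mrc1 at 0.82 between Cd14 and Apoe. In SCID minus line they ran from -0.06 to 1.02 and in WT minus line from 0.77 to 2.77. The fold changes give no levels, so whether a marker was near 0 in any library cannot be seen, and the part of such cells in the values of the 5 genes was not tested. The 3 measured of 22 T and natural killer cell markers, Foxp3, Tcf7 and Eomes, were at -0.02 to -0.01 in WT minus SCID. No B cell marker of 6 listed had a value. The 3 measured of 16 fibroblast and endothelial markers, Col1a1, Kdr and Flt1, ran from -0.71 to 0.29 in WT minus SCID. Against culture all 3 were higher alongside the 5 genes, from 0.80 to 2.61 in SCID minus line, where Col1a1 (type I collagen) was at 2.61 and Flt1, a VEGF receptor, at 1.63, and from 1.09 to 1.90 in WT minus line. Their part in the values of the 5 genes was not tested either. All 9 tumour cell markers were measured, from -0.17 to 0.53 in WT minus SCID, with Epcam at 0.34. Their SCID minus line values ran from -1.18 to 1.28, with the keratins Krt7 and Krt14 at -1.18 and Krt19 at -1.01 lower by 2-fold, and Epcam at 1.25 and Sox9 at 1.28 higher. In WT minus line they ran from -0.99 to 1.59, with 2 higher and 0 lower by 2-fold. Prkdc, the gene mutated in SCID mice, was at -0.02.

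**Figure D3:**
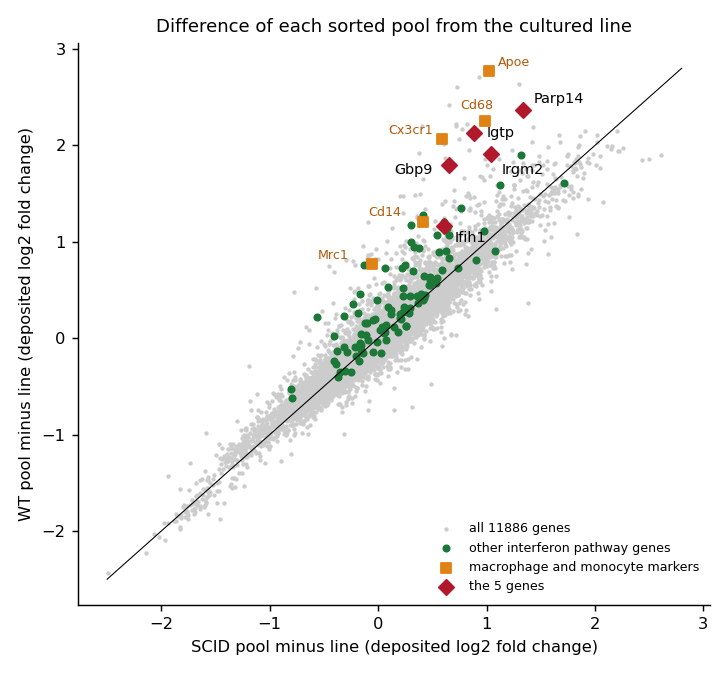
Each point is a gene, with SCID minus line on the horizontal and WT minus line on the vertical axis (both deposited log2 fold changes), and the diagonal marks equal values in both pools. The 5 genes (red diamonds) lie above the diagonal by 0.56 to 1.24, among the 5 macrophage and monocyte markers (orange squares, 0.80 to 1.75 above it), while the other pathway genes (green) have a median of 0.13 above it. Both axes share the library of the cultured line.

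The genes whose pair of values over the 3 libraries was closest to each of the 5 were named by Euclidean distance on SCID minus line and WT minus line. For Igtp these were Rassf2, a RAS-association protein, Tlr2, a receptor for bacterial lipopeptides, and Csf2ra, a GM-CSF receptor chain, at distances of 0.12, 0.12 and 0.15. For Irgm2 they were Man1c1, a mannosidase, Crisp1, a secreted cysteine-rich protein, and Xdh, xanthine dehydrogenase, each at 0.04. For Gbp9 they were Unc93b1, a chaperone of endosomal Toll-like receptors, Slc37a2, a sugar-phosphate transporter, and Ccdc88b, at 0.08, 0.20 and 0.22. For Parp14, which had fewer close genes, they were Cd53, a leukocyte tetraspanin, Emilin2, a matrix glycoprotein, and Mmp19, a metalloproteinase, at 0.20, 0.28 and 0.34. For Ifih1 they were Socs3, Tapbp and Lhfpl2, at 0.04, 0.04 and 0.06. None of the 15 was another of the 5 genes, and Parp14 and Ifih1 were the farthest apart of the 5, at 1.41.

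Measured genes near the 5 on the chromosome differed from locus to locus. Within 250 kb of the start of Igtp, the 7 measured genes other than Irgm2 ran from -0.01 to 0.16 in WT minus SCID, and from -0.53 to 0.26 in WT minus line. Mrpl22, a mitochondrial ribosomal protein gene 27.9 kb away, was at 0.08 and -0.36. Within 250 kb of Parp14, 8 genes ran from -0.13 to 0.51, and the highest were Dtx3l and Parp9, whose starts lie 67.6 and 67.1 kb away and which were at 0.76 and 0.90 in WT minus line. Hspbap1, on the other side of Parp14, was at 0.14 in WT minus SCID and -0.70 in WT minus line. Gca, a calcium-binding protein gene whose start lies 18.1 kb from that of Ifih1, was at 0.04 and -0.72. Dpp4, a dipeptidyl peptidase gene on the other side of Ifih1 and the only other measured gene within 250 kb of it, was at 0.33 and 0.78. No other measured gene lay within 250 kb of Gbp9.

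**Figure D4:**
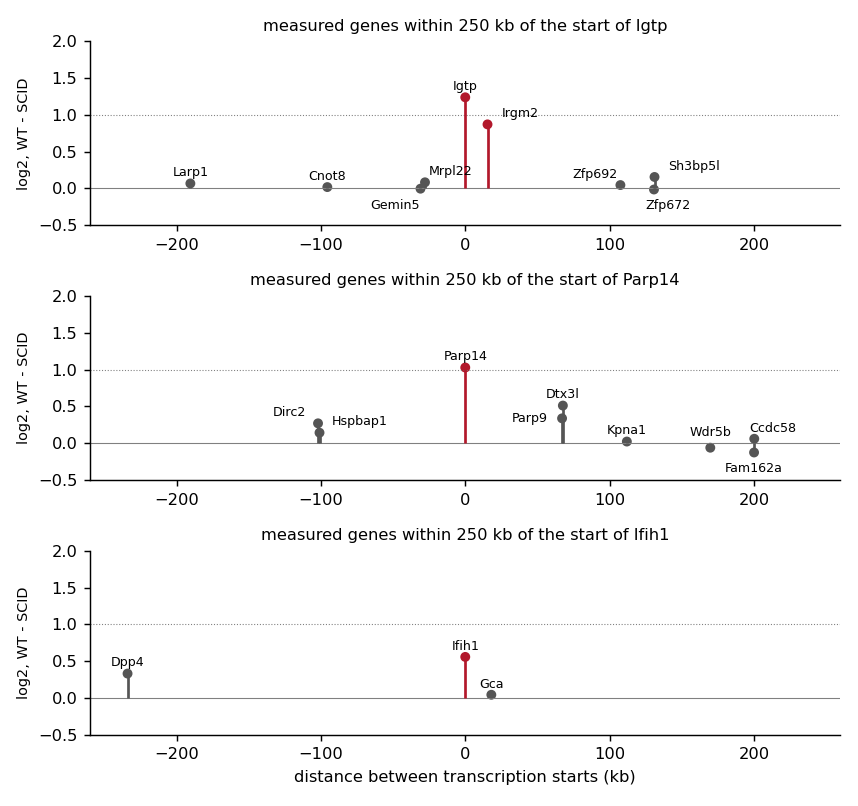
WT minus SCID (deposited log2 fold change, vertical axis) for measured genes against the distance of their start from that of Igtp, Parp14 or Ifih1 (horizontal axis, kb, in genome direction); red marks the 5 genes and the dotted line 2-fold. Irgm2 at 0.87 stands beside Igtp at 1.24 while the 7 other genes of that panel lie between -0.01 and 0.16, and Dtx3l and Parp9 are at 0.51 and 0.34 beside Parp14.

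Over the whole table, genes with GAAANNGAAA or with TTCNNNGAA had WT minus SCID medians near that of all genes. Of 9279 measured genes with a promoter window, 273 held GAAANNGAAA, with a WT minus SCID median of 0.02, against 0.01 for all 9279, and 2 of the 273 (0.733%) were past 2-fold against 0.280%, Igtp itself being 1 of the 2. The 644 genes with TTCNNNGAA had a median of 0.02, and the 27 with both elements a median of 0.05. In WT minus line 22 of the 273 (8.06%), 24 of the 644 (3.73%) and 4 of the 27 (14.8%) were higher by 2-fold. The share of the 9279 was 3.88%, and Igtp and Irgm2 are in each of those counts. Both elements with at most 20 bases between them were found in 7 measured genes, and their WT minus SCID values were 1.24 for Igtp, 0.87 for Irgm2, 0.43 for Bst2, 0.23 for Irf2, -0.09 for Lamp3, -0.09 for Ggps1 and -0.15 for Arid4b. Igtp and Irgm2 were chosen with these values known, so their place in that order is no finding, and the other 5 lay on both sides of 0. Of the 6 measured immunity-related GTPases, all with windows, 3 held GAAANNGAAA, and of 16 sensors and adaptors with windows 0 did.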

How the data were processed

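The analysis used the authors' deposited table of log2 fold changes between 3 RNA-seq libraries, 1 per group, for 17910 RefSeq transcripts (11886 genes, 8288 with 1 transcript). Libraries were stranded, made by poly(A) selection and read in pairs of 75 bases, at a stated mean depth of 40000000 reads, per the labels' protocols. Single libraries' depths are unknown, so no interval or floor is given. BWA, Partek, R 3.5.1, DESeq2 1.20.0 and the build mm9 are listed, with no role or order, per the submitters' processing notes, while any shrinkage or row filter is not stated there. Per the file headers no log base is named, and log2 was read from the authors' listing of DESeq2, whose fold changes use it. A deposited column naming only SCID equalled SCID minus line less WT minus line within 1e-12 and was read as SCID against WT, with its sign turned. The narrow range of the deposited values means that a fold here is a fold on that scale. Coordinates are the deposited ones, 1-based, with the stop less 1 as end, and the starts of the 3 genes with RefSeq windows equal those of GRCm38.p6, not checked against mm9.

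The 5 genes, the 14 gene lists and the comparisons were chosen with earlier results of these data known. Planned names were the 5 genes, list genes past 2-fold (or the 2 farthest from 0), fixed pathway and marker names and the 3 nearest genes; other names were chosen after their values were seen, and some genes the rule names are left out. Transcripts of a gene were averaged. Exon overlaps, 75-base windows, GC content and length came from GENCODE vM21. The trend removal was tested on simulated data. Python 3.11.15, pandas 2.3.3 and numpy 2.4.6 were used.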

Additional observations from a re-analysis of the deposited data

Results flagged for a closer look

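For several of the genes named above the cells of the 2 tumour pools lay on opposite sides of the cultured line, with a single library each, and the difference was not tested. Genes not named above were left out, although some of them did so too, and the share over all genes was not counted. In SCID minus line and WT minus line, Irgm1 was at -0.16 and 0.46, 9930111J21Rik1 at -0.13 and 0.76, and Bst2 at -0.41 and 0.03. In the same order, Mrc1 was at -0.056 and 0.77, Oasl1 at -0.0092 and 0.40, Socs1 at -0.027 and 0.20, and Irf2 at -0.043 and 0.19. None of the 5 genes did so, but they were chosen with these values known, so nothing is read from that. Most of these SCID minus line values were smaller than the SD of 0.33 between transcripts of the same gene, Bst2 at -0.41 being the exception. In WT minus line that SD was 0.31, and Bst2 at 0.03 was well below it. No gene listed here was therefore past the SD on both sides of the line.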

How the results depend on the processing

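All 15 values of the 5 genes kept their direction under centring on the median gene and under removal of a GC and length trend. The trend was a fitted quadratic surface of GC content and transcript length, with sequences for 93.2% of transcripts. Each value moved by less than the SD between transcripts of a gene. The median and the most extreme transcript were also used. Each of the 5 genes has 1 transcript, so those settings could not change its values. The largest shift, 0.104, came with the trend removal in SCID minus line, and the numbers past 2-fold stayed at 3, 2 and 5. At 4-fold, 0 of the 5 passed in WT minus SCID and SCID minus line and 2 in WT minus line. The shares of all genes were 0%, 0.135% and 0.219% in that order. In WT minus SCID the highest value of any gene was 1.88, so no gene passed 4-fold. At 1.5-fold, 4, 5 and 5 of the 5 passed in the same order, against 1.10%, 11.0% and 11.3% of all genes. The 5 genes were picked on these values, so nothing is read from the counts. Leaving out a replicate was not possible with 1 library per group, and the guanylate-binding protein list, with 1 gene, has no median. No paired analysis was possible because each group holds 1 library and no result comes from a test.

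List counts at 1.5-fold (an easier threshold, so more genes pass), in the order WT minus SCID, SCID minus line, WT minus line, were 5, 2 and 4 immunity-related GTPases, 4, 4 and 8 effectors, 1, 1 and 3 inhibitors, and 14, 19 and 35 pathway genes in all. They were 7 and 9 PARP genes and 4 and 5 sensors in SCID minus line and WT minus line, 2 and 4 transcription factors in WT minus SCID and WT minus line, and 1 receptor gene in WT minus line. The 1.5-fold counts include those of the 5 genes that passed, 4, 5 and 5 in the order above. Of all genes 1.10%, 11.0% and 11.3% passed. The 2 immunity-related GTPases in SCID minus line were Igtp and Irgm2, chosen with these values known, so nothing is read from that count. After centring, 2 transcription factors passed 2-fold in WT minus line. The immunity-related GTPase median in SCID minus line was -0.034 without Igtp and Irgm2, an alternative chosen after seeing the data, against 0.30 with them.

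Over all genes, 131, 1311 and 1339 were higher and 21, 1121 and 994 lower at 1.5-fold. At 4-fold 0, 16 and 26 were higher and 0, 4 and 5 lower. With each transcript counted, 718 were higher in SCID minus line, 774 higher and 367 lower in WT minus line, and 5 lower in WT minus SCID, where 0 were lower after the trend removal.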

Other observations

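Irf1 had 2 transcripts, and they gave unlike values in the comparisons that involve the SCID pool. NM_001159396 was at -0.06 in SCID minus line and 1.04 in WT minus SCID, while NM_008390 was at 0.66 and 0.35. In WT minus line they lay 0.02 apart. In WT minus SCID they lay 0.69 apart, against a median of 0.22 over the 3598 genes with 2 or more transcripts, of which 8.03% were at least as wide. Whether Irf1 passes 2-fold between the tumour pools therefore depends on the transcript. The 5 interferon-inducible genes have 1 transcript each and offer no such check.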
